A study of Mus musculus with 6 samples.

Results

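Activating lectin and Fc receptors are surface proteins of myeloid cells, and their messenger RNAs were followed here in whole mouse liver. The set is a list of 10 named genes, and each matched a row of the deposited table by its symbol, 10 of 24318 rows in all. Liver RNA was measured in 6 libraries, 3 labelled control and 3 labelled TAK1 conditional knockout, and all 6 came from C57BL/6 mice carrying VEcadCreERT2 and TAK1flox/flox. In this genotype the promoter of VE-cadherin, an endothelial adhesion protein, drives a Cre recombinase that tamoxifen switches on, and Cre then excises loxP-flanked sequence of Map3k7, the gene of the kinase TAK1. Control mice received no treatment and knockout mice received tamoxifen, so the drug and the deletion cannot be told apart. Age, sex, dose and the time after tamoxifen are not given in the sources used here.

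Receptors of this set report bound targets to phagocytes. Fc gamma receptors bind the constant part of IgG antibodies, and C-type lectins bind sugars and other ligands on microbes and dying cells. Most of them signal through an immunoreceptor tyrosine-based activation motif (ITAM), which is carried by a small partner protein, chiefly the Fc receptor gamma chain encoded by Fcer1g or the adaptor DAP12 encoded by Tyrobp. Phosphorylated ITAMs recruit the kinase Syk, which acts through CARD9, BCL10 and MALT1 on NF-kB and also starts phagocytosis and the oxidative burst. Receptors with an inhibitory motif (ITIM) recruit phosphatases that oppose this. Within the set, Clec4a2 (DCIR) and Clec12a (MICL) carry an ITIM in their own tails, so the word activating does not describe these members. In liver, Kupffer cells, recruited monocytes and neutrophils are the main known carriers of the activating receptors, while sinusoidal endothelium is known for the inhibitory receptor Fcgr2b.

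Knockout livers held more RNA of nearly the whole set. Of the 10 genes, 9 rose and none fell, and the remaining gene, Clec4n, did not pass the test. The signalling subunit Fcer1g rose from 40.2 ± 6.68 to 108 ± 15.6 FPKM, the Fc receptor Fcgr4 from 8.65 ± 1.23 to 42.1 ± 12.1, and the beta-glucan receptor Clec7a from 4.89 ± 0.752 to 20.5 ± 0.603 (mean ± SD, n = 3 libraries a group). The inhibitory receptor Fcgr2b went the other way and fell from 29.2 ± 7.54 to 11.0 ± 2.09 FPKM. FPKM are fragment numbers divided by transcript length and by sequencing depth. Genes were called with limma on log2(FPKM + 0.5) at a Benjamini-Hochberg adjusted p under 0.05 over the 11842 genes that averaged 0.5 FPKM or more. All 10 members passed that filter, Clec5a only through the knockouts, since its controls lay below 0.5 FPKM. In this comparison 14.1% of all tested genes were called higher and 27.0% were called in either direction, so many genes outside the set also differed. Genes called lower numbered 1534, and 996 without control 1 or 943 without control 2. All 3 knockout libraries lay above all 3 controls for 9 members, against 22.4% of tested genes. The median log2 fold change of the members was 1.59, against -0.0007 over all genes tested. The members were chosen with earlier results of these data known, so these comparisons describe the set and do not test it.

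**Figure D1:**
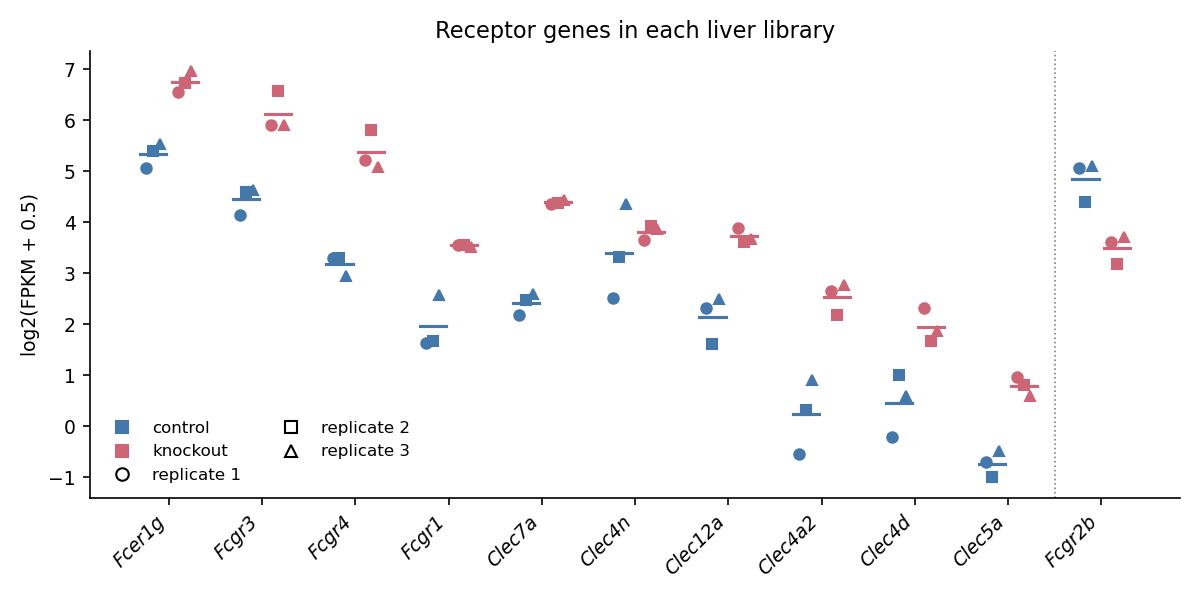
Level of each receptor gene on the log2(FPKM + 0.5) scale (y axis) by gene (x axis), 1 symbol per library (circle, square and triangle for replicates 1, 2 and 3), controls in blue and knockouts in red, with a bar at the group mean. Knockout libraries lie above all controls for 9 of the 10 members, Clec4n overlaps, and Fcgr2b, right of the dotted line, is lower in every knockout library.

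Total read numbers are unknown. Steps between the lowest FPKM values gave relative depths of 0.921 to 1.09 times that of control 1, on the assumption that FPKM were scaled to the fragments mapped in that library. Map3k7 measured 8.50 to 9.14 FPKM in controls and 7.35 to 9.31 in knockouts (limma adjusted p = 0.868), which does not check the labels in whole liver, where many cell types express it. The hepatocyte markers Apoa1 and Ttr averaged 5224 and 6049 FPKM in controls, in keeping with liver tissue. The labels call the libraries triplicates without naming separate animals, so the p-values here cover only the variation among the 6 libraries, which may be technical. Descriptions of some but not all knockout samples carry a suffix whose meaning is not given. In whole tissue, more cells of a type and more RNA per cell cannot be told apart.

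Promoter sequences are shown for the 3 activating Fc gamma receptors, Fcgr1, Fcgr3 and Fcgr4, the genes set against Fcgr2b, and for Clec7a, the lectin with the smallest standard error. They were chosen after the values and matches were seen, and other members hold matches too. They are RefSeq sequence on GRCm38.p6, read 5′ to 3′ in the direction of the gene, from at most 250 bases before the start site and without annotated exons. The build differs from mm9, which the submitters' processing notes name. Capitals mark matches on either strand to GAGGAA (PU.1 and other ETS factors, TTCCTC when read on the other strand), TTCNNNGAA (STAT), TTGCNNAA (C/EBP), TGANTCA (AP-1) and the NF-kB motif.
Fcgr1, chr3:96293970-96294219, minus strand: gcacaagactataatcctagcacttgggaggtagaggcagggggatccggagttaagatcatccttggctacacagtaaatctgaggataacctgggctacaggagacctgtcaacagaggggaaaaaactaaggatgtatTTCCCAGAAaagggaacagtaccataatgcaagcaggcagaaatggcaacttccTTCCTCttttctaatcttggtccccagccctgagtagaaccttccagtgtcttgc
Fcgr3, chr1:171059404-171059626, minus strand: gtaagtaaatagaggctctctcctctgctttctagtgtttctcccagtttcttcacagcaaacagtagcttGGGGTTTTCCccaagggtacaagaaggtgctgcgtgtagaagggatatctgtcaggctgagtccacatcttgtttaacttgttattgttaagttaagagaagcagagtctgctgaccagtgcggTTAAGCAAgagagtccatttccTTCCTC
Fcgr4, chr1:171018676-171018919, plus strand: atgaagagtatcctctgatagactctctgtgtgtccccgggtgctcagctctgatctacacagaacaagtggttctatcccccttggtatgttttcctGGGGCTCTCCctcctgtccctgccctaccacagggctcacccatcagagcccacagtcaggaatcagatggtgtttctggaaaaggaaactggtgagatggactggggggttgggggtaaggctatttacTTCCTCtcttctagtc
Clec7a, chr6:129472780-129473029, minus strand: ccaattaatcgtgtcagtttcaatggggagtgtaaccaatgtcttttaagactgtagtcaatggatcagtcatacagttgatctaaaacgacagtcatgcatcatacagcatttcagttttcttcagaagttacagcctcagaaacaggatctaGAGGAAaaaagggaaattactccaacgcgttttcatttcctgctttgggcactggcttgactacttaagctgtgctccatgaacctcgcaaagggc
All 4 stretches hold GAGGAA, Fcgr1 also holds the STAT motif, and Fcgr3 and Fcgr4 each hold the NF-kB motif from position -152 (counted from the start site). The Fcgr3 stretch precedes a RefSeq start that lies inside the span GENCODE M21 gives for the gene (171051174 to 171064935). RefSeq promoters were matched for 9 of the 10 members, Clec4n having no entry. In the 250 upstream bases, GAGGAA was found in 7 of these 9, against 23.1% of 27025 promoters of the same length. The missing ones were Clec4a2 and Fcer1g, and Fcgr2b also held none. The NF-kB motif was found in 2 of 9 (3.75% of all promoters), the STAT motif in 2 (7.18%), the C/EBP motif in 2 (9.55%) and the AP-1 motif in 1 (6.87%). These matches describe letters in short windows, and binding was not measured.

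Fcer1g encodes the gamma chain that most of the set needs for surface expression or signalling. It measured 33.0, 41.6 and 46.2 FPKM in controls and 93.5, 106 and 125 in knockouts. The lowest knockout was 2.03 times the highest control. The log2 fold change was 1.42 ± 0.17 (SE, 95% interval 1.04 to 1.80, limma adjusted p = 5.18e-04). Its counterpart Tyrobp, which serves Clec5a and the TREM receptors, measured 65.4, 78.2 and 80.2 FPKM in controls and 187, 209 and 203 in knockouts (log2 fold change 1.42 ± 0.13, adjusted p = 1.98e-04). The ratio of Tyrobp to Fcer1g was 1.98, 1.88 and 1.74 in controls and 2, 1.97 and 1.63 in knockouts, overlapping between the groups. Of the other adaptors listed, Hcst (log2 fold change 0.68 ± 0.32, adjusted p = 0.151) and Cd247 (1.0 ± 0.56, adjusted p = 0.221) did not pass. Cd247 did pass without knockout 1 (adjusted p = 0.0474).

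The genes most like Fcer1g across the 6 libraries were sought by Pearson correlation of log2(FPKM + 0.5) among 6436 genes outside the set that averaged 5 FPKM or more. The closest 3 were the transcriptional corepressor Nab2, the small GTPase Rhog and the actin-capping protein Capg, each at r = 0.996. With 6 libraries in 2 groups such values are common, since 643 of these genes exceeded 0.9. Among members, r with Fcer1g ran from 0.531 for Clec4n and 0.892 for Clec4d to 0.987 for Clec7a.

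The activating Fc gamma receptors rose together. Fcgr3, the low-affinity receptor for IgG complexes on myeloid and NK cells, measured 17.1, 23.7 and 24.4 FPKM in controls and 59.3, 94.9 and 60.0 in knockouts. Every knockout library exceeded the controls, and knockout 2 was the highest. Its log2 fold change was 1.67 ± 0.22 (95% interval 1.19 to 2.16, adjusted p = 7.53e-04). Fcgr4, a receptor of IgG2a and IgG2b on monocytes, macrophages and neutrophils, measured 9.37, 9.33 and 7.23 FPKM in controls and 36.8, 56.0 and 33.5 in knockouts. Its log2 fold change of 2.19 ± 0.21 (95% interval 1.72 to 2.67, adjusted p = 2.03e-04) was the largest among the Fc receptors, and its interval overlapped those of Fcgr1 and Fcgr3. Fcgr1, the high-affinity IgG receptor, measured 2.61, 2.71 and 5.46 FPKM in controls and 11.3, 11.3 and 11.0 in knockouts. Controls 1 and 2 were alike and control 3 was higher, but still below every knockout (log2 fold change 1.58 ± 0.26, 95% interval 1.01 to 2.16, adjusted p = 0.00219).

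Fcgr3 was the most abundant of these receptors in every library, with 58.8% to 66.3% of their summed level in controls and 55.2% to 58.5% in knockouts. Fcgr4 held 19.5% to 32.2% in controls and 32.1% to 34.5% in knockouts, and Fcgr1 held 7.58% to 14.7% and 6.99% to 10.6%. Summed FPKM of the 3 receptors over that of Fcer1g was 0.882, 0.859 and 0.804 in controls and 1.15, 1.53 and 0.839 in knockouts, so this ratio overlapped between groups.

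Fcgr2b, the only inhibitory Fc gamma receptor of the mouse, was named by rule as the set's counterpart. It measured 33.1, 20.55 and 34.1 FPKM in controls and 11.8, 8.61 and 12.6 in knockouts, all knockouts below all controls. Its log2 fold change was -1.35 ± 0.23 (95% interval -1.87 to -0.84, adjusted p = 0.0026). In controls, the ratios of summed activating receptors to Fcgr2b were 0.879, 1.74 and 1.09. In knockouts the ratios were 9.11, 18.8 and 8.32. The mean log2 ratio went from 0.25 ± 0.50 to 3.49 ± 0.65 (SD, n = 3), a difference of 3.25 log2 units or 9.5-fold. The exact two-sided permutation test over the 6 libraries gave p = 0.1, the smallest that 3 against 3 can give. Each activating receptor was higher in every knockout and Fcgr2b lower, so the ratio had to separate the groups. This p therefore adds nothing to those values.

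The inhibitory gene also shares sequence with an activating one. Of the 50-base words in Fcgr3 transcripts, 9.58% also occur in Fcgr2b transcripts, so reads from either gene could have been assigned to the other. With Fcgr3 left out the difference in log2 ratio was 3.49, and it was 3.09 without Fcgr4. Part of Fcgr2b lies across from an exon of the opposite-strand gene Gm38204. Among 6 endothelial markers 3 also fell (Kdr, Tek and Lyve1) and none rose. That is 50% called, against 27.0% of all tested genes in either direction. Stab2 (log2 fold change 0.32 ± 0.26, adjusted p = 0.401) and Pecam1 (-0.21 ± 0.20, adjusted p = 0.484) did not pass. The summed level of the 6 was 48.0 to 87.5 FPKM in controls and 39.1 to 48.9 in knockouts, overlapping between the groups. The call of Lyve1 was lost without control 2 or control 3 (adjusted p of up to 0.0634). Cdh5, the VE-cadherin gene, measured 12.7, 10.3 and 23.1 FPKM in controls and 18.8, 18.0 and 16.3 in knockouts (log2 fold change 0.28 ± 0.26, adjusted p = 0.469), and passed as higher without control 3 (adjusted p = 0.0349). The part of endothelial RNA content in the lower Fcgr2b was not tested.

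**Figure D2:**
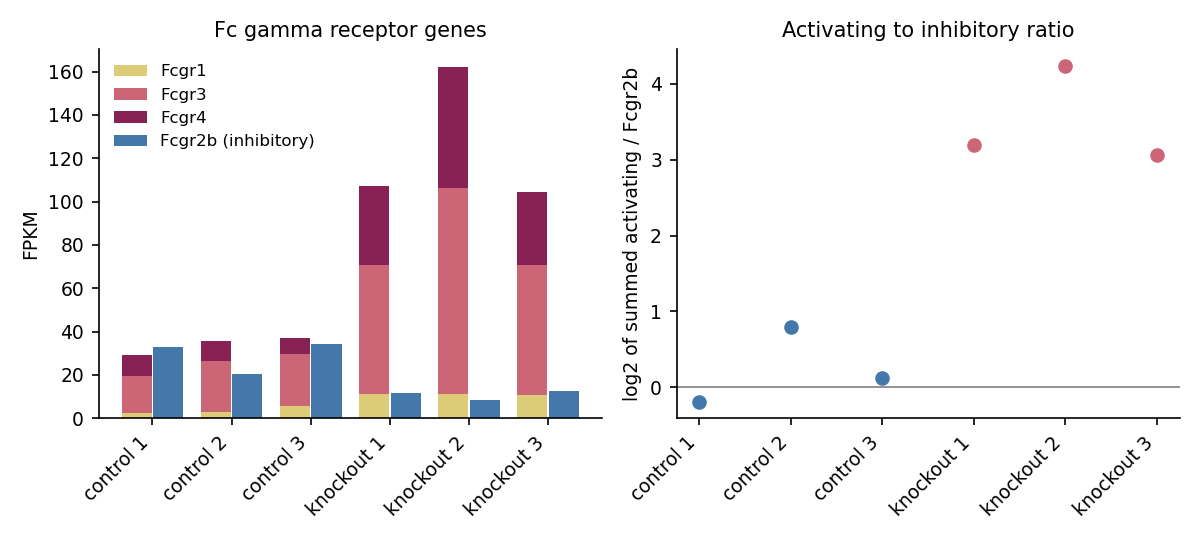
Left, FPKM (y axis, from 0) of Fcgr1, Fcgr3 and Fcgr4 stacked beside Fcgr2b for each library (x axis). Right, log2 of the summed activating receptors over Fcgr2b for each library. Controls lie at ratios of 0.879 to 1.74 and knockouts at 8.32 to 18.8.

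These Fc receptor genes lie close together on chromosome 1 of GRCm38 (GENCODE M21), apart from Fcgr1 on chromosome 3 at 96282909 to 96293969. Fcgr2b (170958617 to 170976547) is followed by Fcgr4 (171018920 to 171029761) after 42372 bases. Fcgr3 (171051174 to 171064935) starts 21412 bases further on, and Fcer1g (171229572 to 171234365) another 164636 bases on. Genes of this cluster thus changed in opposite directions.

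Among the lectins, Clec7a (Dectin-1) had the smallest standard error. It binds beta-glucans and signals through a single tyrosine motif in its own tail. It measured 4.05, 5.09 and 5.51 FPKM in controls and 20.1, 20.2 and 21.2 in knockouts, with a log2 fold change of 1.97 ± 0.16 (95% interval 1.60 to 2.35, adjusted p = 9.91e-05). GENCODE M21 lists Clec7a (chromosome 6, 129461591 to 129472779) as a polymorphic pseudogene, and none of its 50-base words occurs in another gene's transcripts.

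Clec4n (Dectin-2), a receptor for mannans that pairs with the gamma chain, was the only member not called. It measured 5.26, 9.54 and 20.1 FPKM in controls and 12.0, 14.8 and 14.1 in knockouts. The controls were widely spread, and control 3 exceeded every knockout. The log2 fold change was 0.41 ± 0.38 (95% interval -0.45 to 1.27, adjusted p = 0.463). That interval overlapped those of all other members but Clec4a2, Clec7a and Fcgr4, and a difference from the other members was not tested. Without control 3 the log2 fold change was 0.89 with adjusted p = 0.0362, and without control 1 it was -0.03 with adjusted p = 0.959. Clec7a to Clec4n ratios were 0.77, 0.534 and 0.275 in controls and 1.68, 1.37 and 1.51 in knockouts. Clec4n was thus the more abundant of these lectin messages in every control, and Clec7a in every knockout.

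Clec4d (MCL), a partner of the glycolipid receptor Mincle, measured 0.362, 1.5 and 1.01 FPKM in controls and 4.52, 2.71 and 3.14 in knockouts. Its log2 fold change was 1.5 ± 0.34 (95% interval 0.73 to 2.27, adjusted p = 0.0112). Mincle itself, Clec4e, measured 0.179, 0 and 0.827 FPKM in controls and 3.43, 3.64 and 2.72 in knockouts (log2 fold change 2.29 ± 0.37, adjusted p = 0.0022). Both were scarce in controls and above every control in all knockouts. After correction for relative depth, Clec4e controls were 1, 0 and 5.01 times the lowest nonzero value, so they may rest on few fragments.

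Clec5a, a DAP12-coupled receptor of monocytes and neutrophils, was the scarcest member, at 0.118, 0 and 0.212 FPKM in controls and 1.46, 1.26 and 1.02 in knockouts. After correction for relative depth, its values were 1, 0 and 1.96 times the lowest nonzero value in controls and 13, 10 and 8 times in knockouts. If that lowest value is 1 fragment, these libraries held a handful of Clec5a fragments. Clec4d values were likewise within 0.04 of whole multiples, at 1, 4 and 3.01 in controls and 13, 7 and 7.99 in knockouts. The log2 fold change of Clec5a was 1.53 ± 0.31 (95% interval 0.83 to 2.22, adjusted p = 0.00627), and it depends on the pseudocount, from 1.02 to 2.82 over the alternatives.

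The ITIM-bearing members rose as well. Clec4a2 (DCIR) measured 0.189, 0.756 and 1.39 FPKM in controls and 5.76, 4.03 and 6.33 in knockouts. Its log2 fold change of 2.30 ± 0.37 (95% interval 1.47 to 3.12, adjusted p = 0.00208) was the largest of the set by estimate. That rank depends on the pseudocount, since with a pseudocount of 1 it was 1.88, against 2.13 for Fcgr4. By ratio of group means Clec5a led, with 11.3 against 6.89 for Clec4a2. After correction for relative depth, Clec4a2 controls were 1, 3.86 and 8.01 times the lowest nonzero value, so they too may rest on few fragments. Of the 50-base words of Clec4a2, 6.69% occur in transcripts of other genes, most of them Clec4a4, so some of its reads could belong to a relative. Clec12a (MICL), a receptor for uric acid crystals, measured 4.51, 2.56 and 5.11 FPKM in controls and 14.4, 11.8 and 12.2 in knockouts (log2 fold change 1.59 ± 0.24, 95% interval 1.05 to 2.13, adjusted p = 0.00167). For each of these genes every knockout lay above every control. Control means that moved by over 1.5 times without control 3 were those of Clec4n (11.6 to 7.40 FPKM), Clec4a2 (0.779 to 0.472) and Clec5a (0.110 to 0.0588).

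Clec4a2, Clec4n and Clec4d lie on 1 stretch of chromosome 6 of GRCm38. Clec4a2 (123106428 to 123143999) lies 85843 bases before Clec4n (123229843 to 123247021), and Clec4d (123262111 to 123275265) begins 15089 bases after it. Clec4n, the gene that was not called, thus sits between called members. Clec12a (129342691 to 129365303) and Clec7a lie further along, 96287 bases apart, and Clec5a (40574894 to 40585821) lies far from both.

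By mean level, the order in controls was Fcer1g, Fcgr3, Clec4n, Fcgr4, Clec7a, Clec12a, Fcgr1, Clec4d, Clec4a2 and Clec5a. In controls, libraries of neighbours in this order did not overlap between Fcer1g and Fcgr3, between Fcgr4 and Clec7a, and between Fcgr1 and Clec4d. All other neighbours overlapped. In knockouts the order was Fcer1g, Fcgr3, Fcgr4, Clec7a, Clec4n, Clec12a, Fcgr1, Clec4a2, Clec4d and Clec5a. There, neighbours overlapped between Fcer1g and Fcgr3, Clec4n and Clec12a, and Clec4a2 and Clec4d, and were separate elsewhere. FPKM allow this comparison between genes because they are scaled by transcript length.

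Other genes of the pathway were taken from lists of its parts. Of 22 further ITAM-coupled receptors 11 were tested, and 7 rose and none fell. Of these 7, Clec4e, Trem1, Trem3 and Sirpb1a averaged under 0.5 FPKM in controls and so reached the filter only through the knockouts, which leaves Trem2, Cd300lb and Lilra5. A list's count of rising genes is in part set by the filter wherever this holds. The lipid receptor Trem2 measured 1.37, 2.25 and 1.27 FPKM in controls and 11.0, 8.82 and 10.8 in knockouts (log2 fold change 2.35 ± 0.23, adjusted p = 2.03e-04). The amplifying receptor Trem1 measured 0.147, 0 and 0.680 FPKM in controls and 2.54, 2.52 and 1.28 in knockouts (log2 fold change 1.81 ± 0.39, adjusted p = 0.00858). Fcer1a and Ms4a2, subunits of the mast cell IgE receptor that also uses Fcer1g, were listed at 0 in every control and were too low to test.

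Of 23 genes of the Syk and CARD9 relay 22 were tested, and 17 rose and none fell, 5 of the 17 (Card9, Vav3, Blnk, Lat2 and Pik3cg) having reached the filter only through the knockouts. The call of Vav3 was lost without any 1 library except control 3 (adjusted p of 0.08 to 0.133), that of Blnk without control 1, knockout 1 or knockout 2 (0.0519 to 0.0582) and that of Lat2 without control 2 or knockout 1 (0.053 and 0.0559). The kinase Syk measured 2.47, 1.06 and 3.85 FPKM in controls and 10.2, 9.57 and 10.4 in knockouts (log2 fold change 1.95 ± 0.33, adjusted p = 0.00272). The adaptor Card9 measured 0, 0.304 and 0.811 FPKM in controls and 3.09, 2.81 and 3.17 in knockouts (log2 fold change 2.12 ± 0.36, adjusted p = 0.00263). After correction for relative depth, its controls were 0, 1 and 3.01 times the lowest nonzero value, so they may rest on few fragments. Card9 had log2 fold changes of 1.59 to 3.23 over the alternatives. Its partner Bcl10 rose from 7.75 to 15.3 FPKM on average (adjusted p = 0.00328), whereas Malt1, the protease of that complex, had a log2 fold change of 0.75 ± 0.32 that did not pass (adjusted p = 0.11). The Src family kinase Fgr rose by 1.95 log2 units (adjusted p = 0.00173).

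All 7 genes listed with the phagocyte oxidase, the enzyme of the oxidative burst, rose (median 1.78). Its catalytic subunit Cybb measured 6.52, 7.05 and 14.9 FPKM in controls and 40.5, 40.5 and 38.8 in knockouts (log2 fold change 2.11 ± 0.27, adjusted p = 7.32e-04). The regulatory subunit Ncf4 had the largest change of these 7, at 2.34 ± 0.23 (adjusted p = 2.21e-04). Of 14 cytokine and early response genes known to follow Syk and CARD9, 4 reached the filter and 3 of them rose, namely the cytokine Il1b, the chemokine Cxcl1 and the inflammasome sensor Nlrp3. The call of Cxcl1 (log2 fold change 1.86 ± 0.47, adjusted p = 0.0177) was lost without control 3, knockout 1 or knockout 3 (adjusted p of 0.0519 to 0.0576). The chemokine Cxcl2 was tested and not called (log2 fold change 0.81, adjusted p = 0.36). The other 10 genes stayed under the filter. Il6, Il10, Csf3, Egr2 and Egr3 were listed at 0 in every control and above 0 in at least 1 knockout, Il23a, Il12b, Csf2 and Ptgs2 were listed at 0 in all 6 libraries, and Tnf averaged 0.301 FPKM in controls and 0.695 in knockouts.

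Genes of the opposing arm rose too. Of 17 ITIM receptors outside the set 14 were tested, and 11 rose and 1, Fcgr2b, fell. Of the 11, Cd300lf and Cd33 reached the filter only through the knockouts. The lipid-binding receptor Cd300lf measured 0.248, 0.258 and 0.229 FPKM in controls and 6.60, 9.23 and 5.13 in knockouts (log2 fold change 3.29 ± 0.26, adjusted p = 8.47e-05). Pirb, a receptor for MHC class I, measured 1.32, 0.854 and 4.40 FPKM in controls and 9.93, 11.6 and 12.5 in knockouts (log2 fold change 2.36 ± 0.41, adjusted p = 0.00307). Of 12 inhibitory phosphatases and adaptors 8 rose and none fell (median 1.21), including the lipid phosphatase Inpp5d (1.75 ± 0.25, adjusted p = 0.00125) and the adaptor Sla (2.29 ± 0.22, adjusted p = 2.03e-04).

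Other C-type lectins and Fc receptors were also listed. Of 17 tested further C-type lectins, which include hepatocyte, endothelial, soluble, macrophage and lymphoid ones, 1 rose (Clec11a) and 4 fell (Clec4g, Clec14a, Clec3b and Mbl2), and 12 did not pass, with a median log2 fold change of -0.11. That is 29.4% called, near the 27.0% of all tested genes, and the difference from the receptor set was not tested. Of the 4 that fell, Clec4g and Clec3b reached the filter only through the controls. The call of Clec11a was lost under 7 of 16 alternatives (adjusted p of 0.0505 to 0.0956), 5 of them with 1 library left out, and that of Clec3b without knockout 1, 2 or 3 (0.0641 to 0.0705). The sinusoidal lectin Clec4g measured 44.4, 63.8 and 56.5 FPKM in controls and 0.381, 0 and 0 in knockouts, and endothelial Clec14a fell (log2 fold change -1.57 ± 0.34, adjusted p = 0.009). The hepatocyte asialoglycoprotein receptor gene Asgr1 and the Kupffer cell lectin Clec4f had log2 fold changes of -0.07 ± 0.15 and 0.18 ± 0.16, neither of which passed (adjusted p = 0.782 and 0.456), and the sign for Asgr1 turned under 3 alternatives. Of 7 tested Fc receptors outside the Fc gamma family 2, the B cell genes Fcrla and Fcmr, rose and 1 fell. Both reached the filter only through the knockouts, and the call of Fcmr was lost under 9 of 16 alternatives (adjusted p of 0.0596 to 0.135), among them without any 1 library except knockout 1, and that of Fcrla without knockout 3 (0.0513). The polymeric immunoglobulin receptor Pigr of hepatocytes and bile ducts fell (log2 fold change -0.63 ± 0.15, adjusted p = 0.012), a call lost without control 2 (adjusted p = 0.0611) and with quantile normalization (0.0801). The neonatal Fc receptor Fcgrt had a log2 fold change of -0.37 ± 0.16 (adjusted p = 0.118), which passed with libraries rescaled to the same total (adjusted p = 0.0295).

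**Figure D3:**
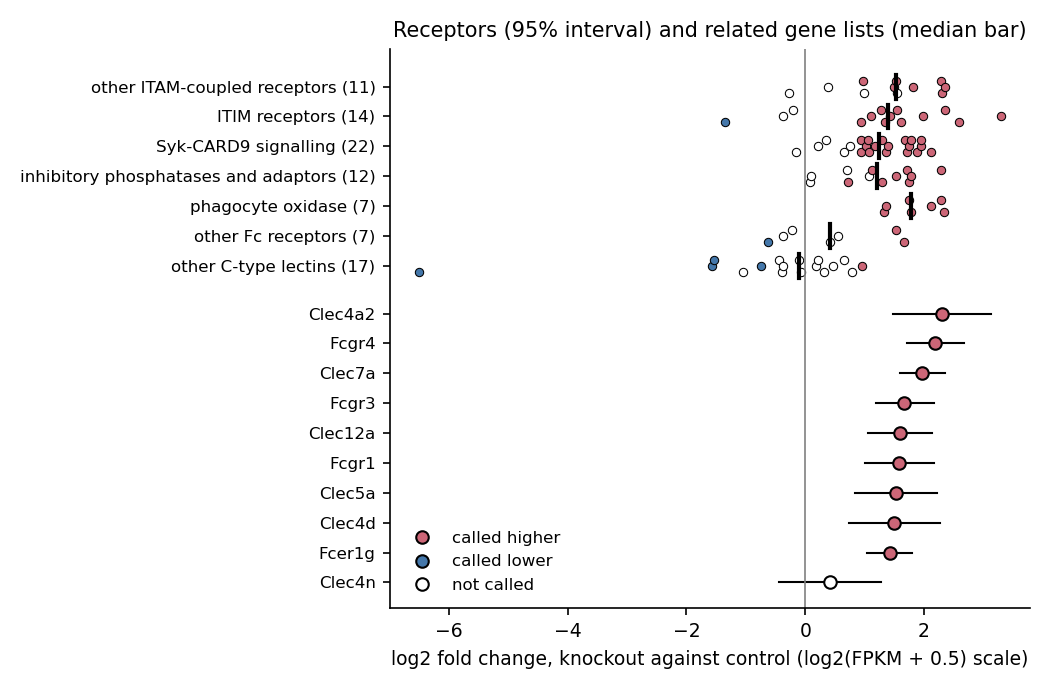
Log2 fold change of knockout against control on the log2(FPKM + 0.5) scale (x axis) for the 10 members with 95% intervals and for the tested genes of 7 related lists (number in brackets), 1 point per gene, with the median of the tested genes of a list as a bar. Red marks genes called higher, blue called lower and white not called, and the intervals of 9 members lie above 0.

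Many markers of the cells that carry these receptors were also higher. All 12 tested neutrophil markers and all 8 monocyte markers rose, of which 5 and 3 reached the filter only through the knockouts. Summed neutrophil markers were 37.3 to 76.4 FPKM in controls and 1743 to 1833 in knockouts, a ratio of means of 32.5. Summed monocyte markers were 26.4 to 32.2 FPKM and 286 to 310.2, a ratio of 9.83. Such sums follow the most abundant genes of a list, so their ratios do not measure cell numbers. Of 8 Kupffer cell markers 4 rose (Vsig4, Cd5l, Adgre1 and Folr2). Clec4f, Timd4, Marco and Cd163 did not pass, and their libraries overlapped between the groups. Sums of the 8 were 441 to 909 FPKM in controls and 943 to 1130 in knockouts (ratio 1.69). Without control 2 the calls of Vsig4 (adjusted p = 0.0565) and Folr2 (0.0672) were lost, the latter also with libraries rescaled to the same total. All 5 pan-leukocyte markers, Ptprc, Coro1a, Itgb2, Cd52 and Laptm5, rose, with sums of 46.4 to 92.3 and 283 to 306 FPKM (ratio 4.28). No marker of these 4 lists was at 0 in all controls.

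The same ratio was 2.55 for the 6 lectins and 3.67 for the 3 Fc gamma receptors. Fcer1g thus equalled 50.2%, 89.6% and 50% of the pan-leukocyte sum in controls and 32.7%, 37.5% and 40.7% in knockouts, lower in every knockout. Clec7a equalled 5.97% to 11.0% of that sum in controls and 6.94% to 7.16% in knockouts, and Fcgr4 7.83% to 20.1% and 11.0% to 19.8%, overlapping for each. Against the Kupffer cell marker sum, Clec7a was 0.607% to 1.02% in controls and 1.79% to 2.14% in knockouts, and Fcer1g 5.08% to 8.31% and 9.39% to 11.9%, higher in every knockout. Against the monocyte marker sum, Clec7a was 15.4% to 17.1% in controls and 6.52% to 7.29% in knockouts. Fcer1g was 125% to 143% and 32.7% to 42.7% of that sum. Against the neutrophil marker sum, Clec7a was 7.22% to 10.9% and 1.1% to 1.22%. Fcer1g was 60.4% to 88.4% and 5.1% to 7.15% of it. Both genes were thus lower in every knockout against these sums, so the direction depended on the marker list. The part of changed cell content in the receptor changes was not tested.

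Markers of other blood cells were scarcer in controls. All 5 B cell markers rose (3 of them reached the filter only through the knockouts), from 1.42 to 4.93 FPKM summed in controls to 14.5 to 29.9 in knockouts, with Pax5 at 0 in all controls. Of 4 tested dendritic cell markers 2, Itgax and Ccr7, rose, both of them tested only because of their knockout levels (sums of 1.65 to 3.42 and 6.21 to 8.49 FPKM, Cd209a at 0 in all controls), and of 6 tested T and NK cell markers 1, Cd3d, rose (3.32 to 7.19 and 10.8 to 11.3 FPKM, Cd8a at 0 in all controls), which is 16.7% against 14.1% of all tested genes. The 5 eosinophil markers summed to 0.396 to 2.1 FPKM in controls and 41.6 to 73.9 in knockouts (ratio of means 57.3), with Epx at 0 in all controls. Most of that knockout sum was Prg2 (mean 51.3 FPKM), while Epx and Ccr3 averaged 2.11 and 1.43 FPKM in knockouts. Prg2, Epx and Ccr3 were called higher but reached the filter only through the knockouts, and Siglecf and Il5ra did not reach it. Mast cell and basophil markers summed to 0 to 0.426 FPKM in controls and 2.05 to 4.2 in knockouts, with Mcpt8, Cpa3, Ms4a2, Fcer1a and Cma1 at 0 in all controls. The basophil protease Mcpt8 was the only gene of that list to reach the filter, which it did through the knockouts alone, so its call adds nothing to its values. Of 7 hepatocyte markers 3 (Ttr, Hnf4a and Ass1) fell and none rose, with sums of 11200 to 16200 FPKM in controls and 7613 to 9996 in knockouts. Several of these single calls were close to the threshold. With any 1 library left out Hnf4a was no longer called, and Ccr3 was not called without any 1 library except control 3. Of all alternatives, Hnf4a lost its call under 9 of 16, Ccr3 under 8 of 15, and Cd3d, Ccr7 and Ass1 under 5 of 16 each, with adjusted p of up to 0.698, 0.126, 0.0798, 0.0936 and 0.0858.

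**Figure D4:**
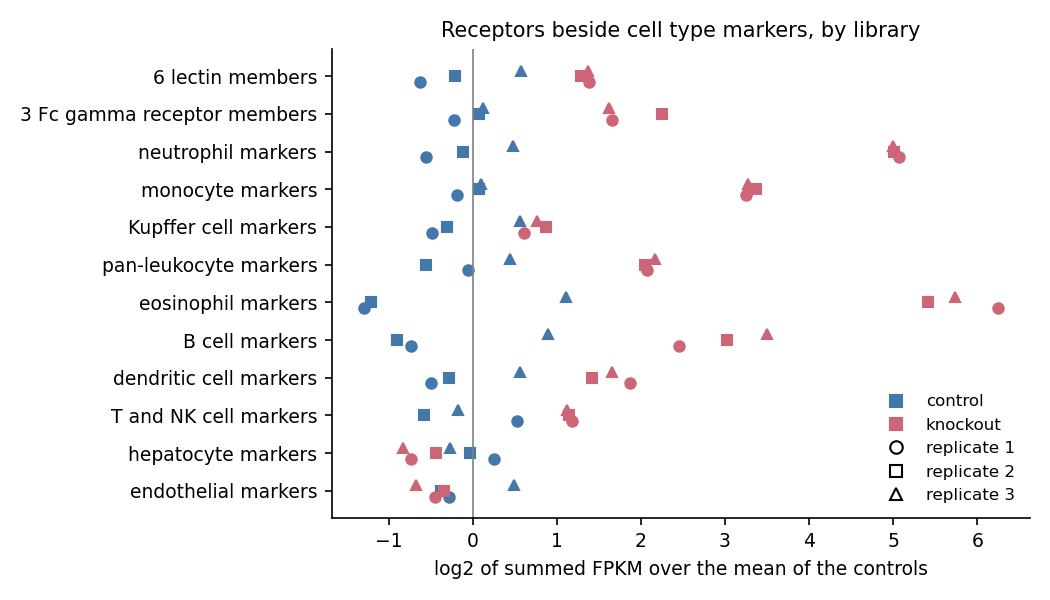
Log2 of summed FPKM over the mean of the controls (x axis) for the receptors and for lists of cell type markers (y axis), 1 symbol per library. Knockouts lie above controls for the lectins, the Fc gamma receptors and the 8 leukocyte lists drawn, among which the ratio of means ran from 1.69 for Kupffer cell markers to 57.3 for eosinophil markers. Each sum follows the most abundant genes of its list, which for eosinophils is Prg2. Mast cell and basophil markers are not drawn because their sum was 0 in 2 controls.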

How the data were processed

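Per the labels' protocols, RNA was extracted from whole liver on spin columns, and libraries were made with a TruSeq v2 kit and sequenced as paired ends. The submitters' processing notes name, with no role or order, Cuffnorm 2.2.1, Cuffdiff 2.2.1, TopHat2 2.1.0, Trimmomatic 0.33 and build mm9. The gene models and the use of strand are not given in these sources. The authors deposited FPKM values, 1 column per library, which were used as they stand, so no count model was run and depth limits are unknown. Alb was listed at 0 in every control but at 59068, 73306 and 55705 FPKM in knockouts 1, 2 and 3. The control values were taken to be errors of quantification, and the gene was not used. For Alb this error thus followed the groups compared here. Whether other genes carry a similar difference between the groups was not tested.

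The groups were compared on log2(FPKM + 0.5), a scale that understates changes of low genes, with lmFit and eBayes of limma 3.58.1 under R 4.3.3 (mean-variance trend, two-sided). The 11842 genes averaging 0.5 FPKM or more were tested and adjusted together. On simulated data of 11742 genes for this comparison, calls were made for 81.2% of 96 genes moved by 1 log2 unit and 100% of 97 moved by 2, with 6 false calls among 11549. The simulation gave genes of the same level the same spread and moved far fewer genes than were called here. Its rates may therefore not carry over to the real libraries. The ratio of Fc gamma receptors was tested by exact permutation. Relative depth is the commonest ratio to control 1 among genes under 0.15 FPKM in both libraries. Members and lists were chosen with earlier results of these data known. Named genes are the members, Fcgr2b, Tyrobp, Syk, Card9, Map3k7 and Cdh5, up to 4 called genes with the largest change per list (or the 2 most abundant), and the 3 most like Fcer1g. Asgr1, Clec4f, Mbl2, Fcgrt, Bcl10, Malt1, Cd247, Cd3d, Apoa1, Pax5, Laptm5, Cxcl2, Tnf, genes named for how they passed the filter, and the untested genes listed at 0 in controls were named after their values were seen. So were Stab2, Pecam1, Timd4, Marco and Cd163, which the counts over alternatives leave out. Of the 210 list entries only Ly6g had no row. Figures were drawn with matplotlib 3.10.9.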

Additional observations from a re-analysis of the deposited data

How the results depend on the processing

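Over 159 combinations of a member and an alternative (pseudocount, filter, scaling, trend or robust fit, weights per library, replicate block, libraries left out singly), 157 kept direction and side of the threshold. The others were both of Clec4n, which passed without control 3 (0.89) and turned to -0.03 without control 1. With a filter at 1 FPKM Clec5a was not tested, which left 8 members called higher. Leaving out 1 library gave 9 to 10 members called higher and 0 lower, 1186 to 1644 genes called higher and 943 to 1497 called lower, the lowest without control 2. The activating to inhibitory log2 ratio ran from 2.88 to 3.52 without 1 library. Map3k7, not called, ran from -0.1 to 0.06, the latter without knockout 3. Of 1423 such combinations for other named genes, 1335 kept direction and side, 76 lost the call, 6 gained it and 6 turned direction. The latter were of genes not called: Map3k7 above, Asgr1 (0.09 with quantile normalization, and -0.17 to 0.03 with 1 library left out) and the T cell gene Cd3g (-0.43 to 0.29 with 1 library left out). Rescaling libraries to the same total put the median change over tested genes at -0.11 and gave 1356 genes higher and 2081 lower, 39.5% higher against 52.1% with the deposited scaling. Members called higher stayed at 9.

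Replicate numbers did not pair the libraries. Deviations of same-numbered libraries correlated at -0.01, 0 and 0.002, and not every library correlated best with its own number. With the replicate block 9 members were called higher, as were 1575 genes against 1385 lower, and the ratio difference of 3.25 had an exact p = 0.25, the smallest 3 pairs allow. That p was likewise set by the separation of the receptor genes.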
